A study of Mus musculus with 6 samples.

Results

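The ErbB receptors and the ligands of the EGF and neuregulin families were examined in astrocytes of the upper and deep layers of the mouse somatosensory cortex. Members were the rows of the expression table whose symbol was Egfr, Erbb2, Erbb3 or Erbb4 (receptors) or Nrg1, Nrg2, Nrg3, Hbegf, Btc or Tgfa (ligands), which gave 10 of 43383 rows, 1 for each symbol. GFP-positive cells were sorted from the dissected cortex of male Aldh1l1-eGFP mice aged 4 weeks, a transgenic line in which the Aldh1l1 promoter drives GFP in astrocytes. Upper-layer astrocytes (ULAs) came from layers II–IV and deep-layer astrocytes (DLAs) from layers V and VI, without layer I, the meninges, the corpus callosum and parts of layers IV and V. Each layer had 3 libraries, 1 from each of 3 brains, and neither layer received a treatment or carried another allele.

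ErbB proteins are receptor tyrosine kinases that act in pairs. Egfr binds the EGF-type ligands, Erbb3 and Erbb4 bind the neuregulins, and Erbb4 also takes some EGF-type ligands such as Hbegf and Btc. Erbb2 has no known ligand of its own and is the preferred partner of the others, and Erbb3 has a weak kinase and signals through its partner. The ligands are made as membrane-bound precursors that metalloproteases of the ADAM family cut from the cell surface. In the cortex, Egfr is known from glial progenitors and from astrocytes, Erbb4 from inhibitory interneurons and Erbb3 from the oligodendrocyte lineage.

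The libraries held between 19.7 and 29.6 M reads. RPKM is the number of reads on an mRNA divided by its length and by the number of reads of the library, so levels of different genes can be set side by side. Aldh1l1 was at 203.3 to 271.1 RPKM in the 6 libraries, and 9 astrocyte markers summed to between 9727 and 11357 RPKM, the highest sums of any marker list. The 10 oligodendrocyte markers summed to 87.7 to 181.3 RPKM in ULAs and 179.2 to 285.4 RPKM in DLAs, with the highest value in the DLAs of brain 3. The endothelial markers stayed between 0.44 and 3.15 RPKM in sum. Of the 10 members, 6 had a mean of at least 1 RPKM over the libraries (Egfr, Erbb2, Hbegf, Tgfa, Nrg1 and Nrg2) and were tested with limma, and 4 (Erbb3, Erbb4, Nrg3 and Btc) fell below this limit. Positions are those of the expression table, whose build is mm9 by the submitters' processing notes.

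The family was led by 1 receptor and 1 ligand. Hbegf, the heparin-binding EGF-like growth factor, and Egfr were the highest members in each of the 6 libraries, with Nrg1 next. The mean over the libraries was 34.2 RPKM for Hbegf, 24.7 for Egfr, 7.97 for Nrg1, 4.73 for Erbb2, 3.08 for Tgfa and 1.25 for Nrg2. Nrg3, Erbb4, Btc and Erbb3 followed at 0.518, 0.452, 0.430 and 0.0733 RPKM. Among the 13999 rows with a mean of at least 1 RPKM, Hbegf stood at percentile 82.9, Egfr at 76.9, Nrg1 at 49.0 and Erbb2 at 34.8. Of the neighbours in this order, Egfr and Nrg1 were separate in level, as were Nrg2 and Nrg3, whereas the ranges of the other neighbours overlapped. Hbegf and Egfr kept their order within each library, although the lowest Hbegf value, 29.94 RPKM in the DLAs of brain 3, lay below the highest Egfr value, 30.34 RPKM in the ULAs of brain 1.

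**Figure D1:**
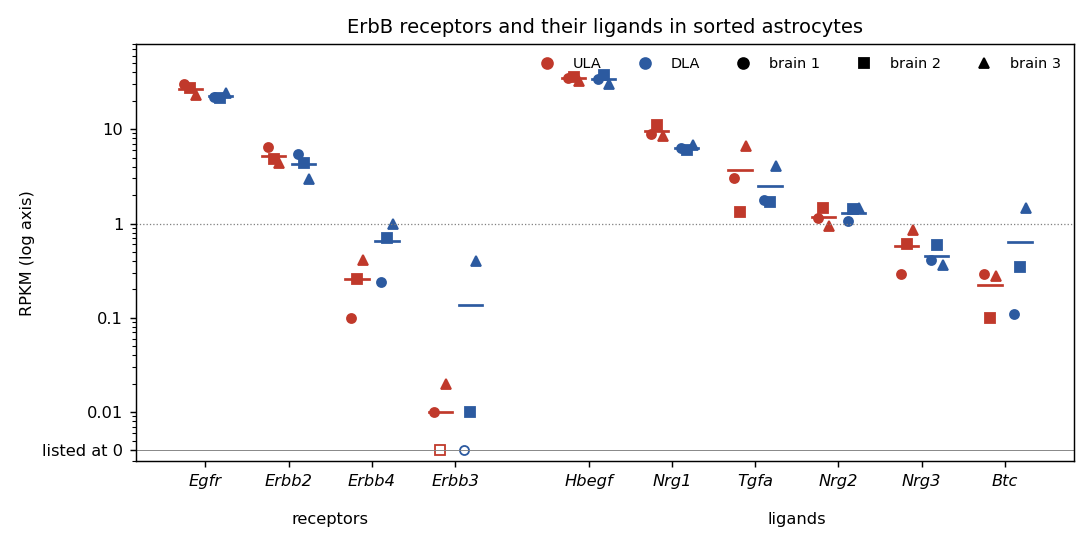
RPKM of the 10 members in each library on a log axis (points, with the shape giving the brain) and the mean of each layer (bars, n = 3). Open points are listed at 0, and the dotted line marks the limit of 1 RPKM for testing. Hbegf and Egfr lie above 20 RPKM in both layers, and Erbb3 lies below 0.03 RPKM in all libraries except the DLAs of brain 3.

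Egfr made up most of the receptor mRNA. It accounted for 82.3, 84.2 and 82.8% of the summed RPKM of the 4 receptors in the ULAs of brains 1, 2 and 3 and for 79.4, 80.8 and 84.6% in the DLAs of the same brains. Erbb2 supplied between 10.5 and 19.7%, Erbb4 between 0.271 and 3.50% and Erbb3 at most 1.41%. On average, ULAs had an Egfr share of 83.1 ± 0.975% (SD, n = 3) and DLAs one of 81.6 ± 2.69%, a difference of 1.51 percentage points that was within the spread between brains (p = 0.5 in a two-sided exact permutation test over the pairs). With 3 pairs this test cannot give a p under 0.25. Among the 6 member ligands, Hbegf supplied 65.5 to 78.7% of the summed RPKM and Nrg1 12.8 to 22.1%. The share of Nrg1 was higher and that of Hbegf lower in the ULAs of each brain (exact permutation p = 0.25 for each, the smallest possible). As shares of the same sum, these are not separate results. In RPKM, Hbegf was not lower in ULAs, being higher there in 2 of 3 brains (exact permutation p = 0.75).

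The remaining ligands of the family were mostly at or near 0. Areg and Ereg were listed at 0 in all 6 libraries and Epgn reached 0.11 RPKM at most. Egf was low, at 1.35 ± 0.355 RPKM in ULAs and 1.23 ± 0.165 in DLAs. Nrg4, a neuregulin that binds Erbb4, was higher than Nrg1 in each library, with 12.53, 15.68 and 17.45 RPKM in ULAs and 16.04, 14.69 and 18.21 RPKM in DLAs. Its ratio to Nrg1 was 1.40, 1.40 and 2.06 in the ULAs of brains 1, 2 and 3 and 2.52, 2.43 and 2.71 in the DLAs. The layers did not overlap in this ratio (exact permutation p = 0.25, the smallest possible with 3 pairs). Nrg4 itself overlapped between the layers and Nrg1 did not, so the ratio is not a result separate from that of Nrg1.

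**Figure D2:**
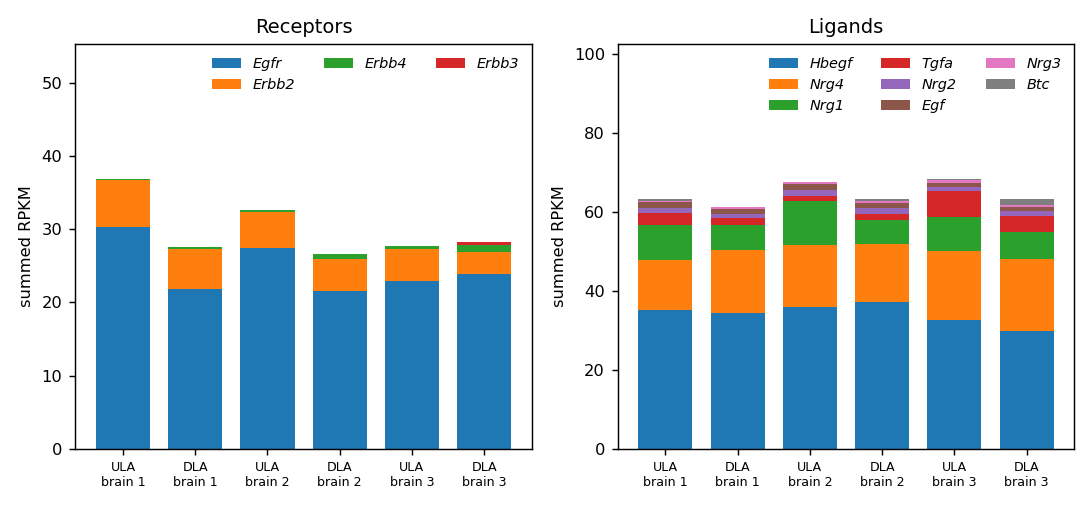
Summed RPKM of the receptors (left) and of the ligands (right) in each library, stacked by gene, with both axes starting at 0. Egfr fills at least 79.4% of each receptor bar, and Hbegf, Nrg4 and Nrg1 form most of each ligand bar.

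The comparison of layers asks whether astrocytes that sit among different neurons differ in this pathway. In the limma test, 0 of the 6 tested members passed an adjusted p of 0.05 (Benjamini-Hochberg over all 13999 rows), and 1 of them, Nrg1, had an unadjusted p under 0.05. Over all rows tested, 1.63% were called, with 0.714% favouring ULAs and 0.914% favouring DLAs (100 and 128 rows, against 138 and 103 rows under quantile normalization). The 6 members had a median log2 fold change (ULA over DLA) of 0.25, against −0.03 over all rows. Values of all libraries of one layer lay above those of the other for 1 of the 6 members, Nrg1 in ULAs, beside 6.59% of all rows in that direction and 9.27% in the other. ULAs were higher in 3 of 3 brains for 2 of the 6 members, Erbb2 and Nrg1, and DLAs for 0 of the 6, beside 15.2 and 23.2% of all rows. As these are sorted populations in bulk, fewer cells that express a gene and less of its mRNA per cell cannot be told apart. The tested members' mRNAs run from 2103 to 6438 bases, beside a median of 2444 over all rows, and longer mRNAs tended to have a higher ratio of ULA to DLA values (Spearman's rho of 0.21, 0.368 and 0.1 in brains 1, 2 and 3, across rows, which are not independent). With that trend removed, the log2 fold changes of Egfr and Erbb2 were 0.12 and 0.15 in place of 0.25 and 0.25, and their adjusted p-values 0.651 and 0.658.

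**Figure D3:**
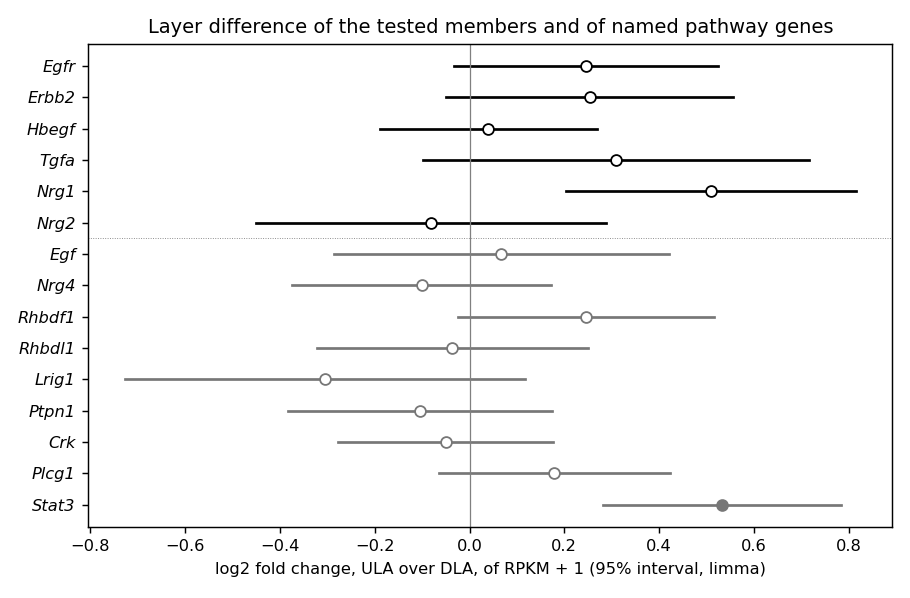
Log2 fold change of RPKM + 1 between ULAs and DLAs with its 95% interval from limma (n = 3 brains) for the 6 tested members (black) and 9 of the named genes of the pathway (grey). The filled point, Stat3, is the only gene of these 15 with an adjusted p under 0.05.

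Nrg1 (neuregulin 1) had the largest log2 fold change among the tested members, although without brain 2 that of Tgfa was larger (0.57 against 0.37). Its row on chromosome 8 (minus strand, 32928500 to 33028675) is a model with 9 exons and 2103 bases, and longer Nrg1 transcripts that start elsewhere have no row of their own under this symbol. In ULAs its values were 8.98, 11.20 and 8.49 RPKM for brains 1, 2 and 3, and in DLAs they were 6.36, 6.04 and 6.73 RPKM. All ULA values lay above all DLA values, and the ratio of the layers was 1.41, 1.85 and 1.26 in brains 1, 2 and 3. Between 250 and 604 reads per library lie behind them. The means were 9.56 ± 1.44 (SD, n = 3) and 6.38 ± 0.345 RPKM, a log2 fold change of 0.51 (SE 0.14, unadjusted p = 0.00404) that did not pass over all rows (adjusted p = 0.107, limma, rank 531 by p). Without brain 3 its log2 fold change was 0.62 with an adjusted p of 0.0140, the lowest over the 11 alternatives, and the highest was 0.427 with no filter on low RPKM. Nrg1 is also known from neurons. The 10 neuronal markers summed to 11.03 to 12.7 RPKM in ULAs and 8.50 to 10.7 RPKM in DLAs, with none of the 10 at 0 in all libraries. Of these, 3 were higher in ULAs in each brain, among them Rbfox3 at 0.07 to 0.40 RPKM, and 1 was higher in DLAs in each brain, Slc17a7, at 0.30 to 0.49 RPKM in ULAs and 0.57 to 0.61 in DLAs. The 8 microglial markers, of which P2ry12 was the only one with a mean over 1 RPKM, also summed higher in ULAs, at 13.7 to 14.8 against 8.96 to 12.7 RPKM. Without P2ry12 the other 7 overlapped between the layers, at 2.03 to 2.23 and 1.2 to 2.44 RPKM. Among these 7, C1qa was higher in DLAs in each brain. Tmem119 was higher in ULAs in each brain, at 0.23, 0.14 and 0.13 against 0.07, 0.04 and 0.12 RPKM. The part of these cells in the Nrg1 difference was not tested.

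Egfr, on chromosome 11 (plus strand, 16652206 to 16813910, 28 exons), was higher in ULAs in 2 of 3 brains. The ULAs of brains 1, 2 and 3 gave 30.34, 27.42 and 22.96 RPKM, and their DLAs 21.84, 21.48 and 23.92 RPKM. In brain 3 the order of the layers was the opposite, with a ratio of 0.960 against 1.39 and 1.28, and the ULA value there fell below the DLA value of the same brain. The 6 values rest on 2719 to 4777 reads. The means were 26.9 ± 3.72 and 22.4 ± 1.32 RPKM, a log2 fold change of 0.25 (95% interval −0.03 to 0.52, adjusted p = 0.358, limma). The interval holds 0 and also values above 0.5, so neither the absence of a difference nor a difference is shown.

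Erbb2, the partner without a ligand, is also on chromosome 11 (plus strand, 98273798 to 98299030, 27 exons). Brain 1 had 6.40 RPKM in ULAs and 5.42 in DLAs, brain 2 had 4.88 and 4.38, and brain 3 had 4.33 and 2.96. ULAs were higher in each brain, but the layers overlapped, because both layers were highest in brain 1 and lowest in brain 3. This gave a log2 fold change of 0.25 with an SE of 0.14 (adjusted p = 0.385, limma). The neighbouring gene Mien1 on the opposite strand, at 69.2 to 113.2 RPKM, shares 9 exonic bases with Erbb2, and reads across them cannot be told apart without strand.

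The other receptors were low, and Erbb3 was close to the limit of detection in 5 of 6 libraries. Erbb3 (chromosome 10, minus strand, 128006424 to 128026557) was listed at 0.01, 0 and 0.02 RPKM in ULAs (brains 1, 2 and 3), against 0, 0.01 and 0.40 RPKM in DLAs. Except in the DLAs of brain 3, where the value stands for 48 reads, no library held more than 3 reads of Erbb3, and a listing at 0 allows up to 1 read at this length. Erbb4 (chromosome 1, minus strand, 68086540 to 69154633, 27 exons) was at 0.10, 0.26 and 0.41 RPKM in ULAs and at 0.24, 0.71 and 0.99 RPKM in DLAs, which is 11, 29 and 47 reads against 28, 60 and 125. It was lower in the ULAs of each brain, with ratios of 0.417, 0.366 and 0.414, although the ULA value of brain 3 lay above the DLA value of brain 1. The exact permutation p was 0.25, the smallest that 3 pairs allow, and in limma with no filter on low RPKM the adjusted p was 0.424. Because Erbb4 was higher in the DLAs of each brain, leaving out any 1 brain could not reverse this order, and no conclusion is drawn from that check.

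Erbb3 and Erbb4 were highest in the library with the highest sum of oligodendrocyte markers. This library was the DLAs of brain 3, with 0.40 RPKM of Erbb3 and 0.99 RPKM of Erbb4. Sox10, a transcription factor of the oligodendrocyte lineage, was at 0.68 RPKM there and at 0.04 to 0.23 in the others. The more abundant Olig1 and Olig2 did not peak there, with Olig1 at 87.2 RPKM against 79.96 to 125.5 in the others and Olig2 at 9.06 against 4.91 to 19.1. Cspg4 was lowest there, at 0.18 RPKM against 0.39 to 0.92. Of the 10 oligodendrocyte markers, 9 were tested and 7 of these were called lower in ULAs. Pdgfra, which marks oligodendrocyte precursors, was at 0.07 RPKM or less in all libraries. The interneuron markers, which bear on Erbb4, summed to 0.55 to 0.62 RPKM in ULAs and 0.67 to 0.96 RPKM in DLAs, with Lhx6 at 0 in all libraries, Slc32a1 at 0.03 RPKM or less and Gad1 between 0.08 and 0.25. Gad2 was higher in ULAs in 2 of 3 brains, at 0.01, 0.28 and 0.05 RPKM against 0.05, 0.02 and 0.02 in DLAs. Pvalb, at 0 to 0.39 RPKM, rests on at most 7 reads per library. The part of oligodendrocyte-lineage cells and interneurons in the values of Erbb3 and Erbb4 was not tested.

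**Figure D4:**
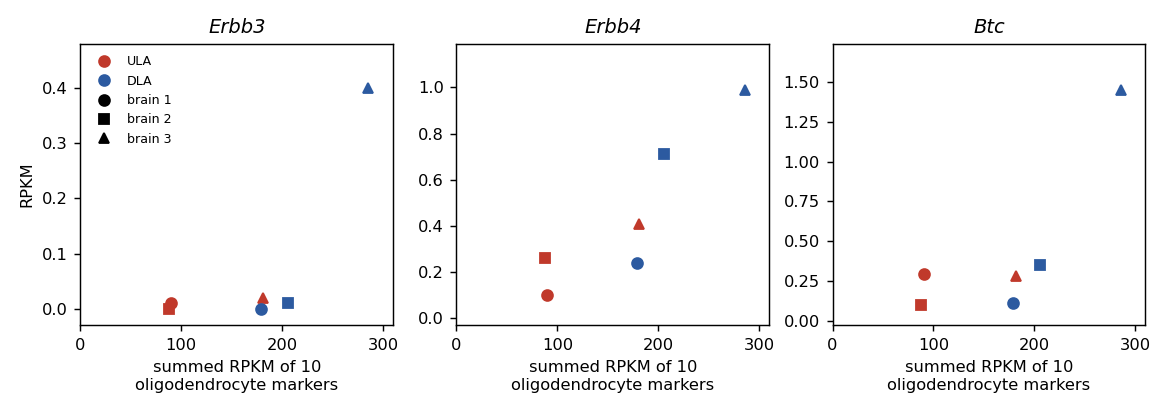
RPKM of Erbb3, Erbb4 and Btc in each library (colour for the layer, shape for the brain) against the summed RPKM of 10 oligodendrocyte markers in the same library, both on linear axes. The DLAs of brain 3 hold the highest value on both axes in each panel, at a marker sum of 285.4 RPKM.

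Among the ligands of Egfr, Hbegf was at nearly the same level in both layers. It lies on chromosome 18 (minus strand, 36664581 to 36675459, 6 exons). For brains 1, 2 and 3 it measured 35.28, 36.02 and 32.73 RPKM in ULAs, and 34.31, 37.16 and 29.94 RPKM in DLAs. The layers overlapped, and brain 2 had the opposite layer order to the others. The log2 fold change was 0.04 with a 95% interval of −0.19 to 0.27 (adjusted p = 0.884, limma), so a layer difference of more than 0.27 on this scale lies outside the interval. Each library held 1735 to 2192 reads of Hbegf, the most of any member ligand. The ratio of Hbegf to Egfr was 1.16, 1.31 and 1.43 in ULAs and 1.57, 1.73 and 1.25 in DLAs. The rows whose pattern over the 6 libraries was most like that of Hbegf, among 8910 rows with a mean of at least 5 RPKM, were 2810002D19Rik, Acot11 and Ints5, with Pearson's r of 0.996, 0.987 and 0.984, a description over 6 libraries made by the same preparation.

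Tgfa (transforming growth factor alpha) varied more between brains than between layers. This gene, on chromosome 6 (plus strand, 86145245 to 86225443, 6 exons), had 3.01 RPKM in ULAs and 1.78 in DLAs of brain 1, 1.31 and 1.67 in brain 2, and 6.69 and 4.04 in brain 3. Brain 3 was highest in both layers, with a mean over its layers of 5.37 RPKM against 2.40 and 1.49 in brains 1 and 2. Brain 2 had the opposite layer order to the other brains, with a ratio of 0.784 against 1.69 and 1.66. On the log2 scale ULAs exceeded DLAs by 0.31 (SE 0.18, adjusted p = 0.432, limma). This difference was 0.57 without brain 2 (adjusted p = 0.126), 0.20 without brain 1 and 0.16 without brain 3. The values rest on 139 to 756 reads. Brain 3 also had the highest oligodendrocyte marker sum within each layer, and the part of those cells in Tgfa was not tested.

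Btc (betacellulin), a ligand of Egfr and Erbb4 on chromosome 5 (minus strand, 91786287 to 91832020, 6 exons), was low in all libraries but 1. ULAs held 0.29, 0.10 and 0.28 RPKM for brains 1, 2 and 3 and DLAs 0.11, 0.35 and 1.45 RPKM, the last of which stands for 124 reads against 8 to 22 in the other libraries. The library with 1.45 RPKM is again the DLAs of brain 3. The mean of the DLAs was 0.637 RPKM with that brain and 0.230 without it, against 0.223 and 0.195 in ULAs.

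**Figure D5:**
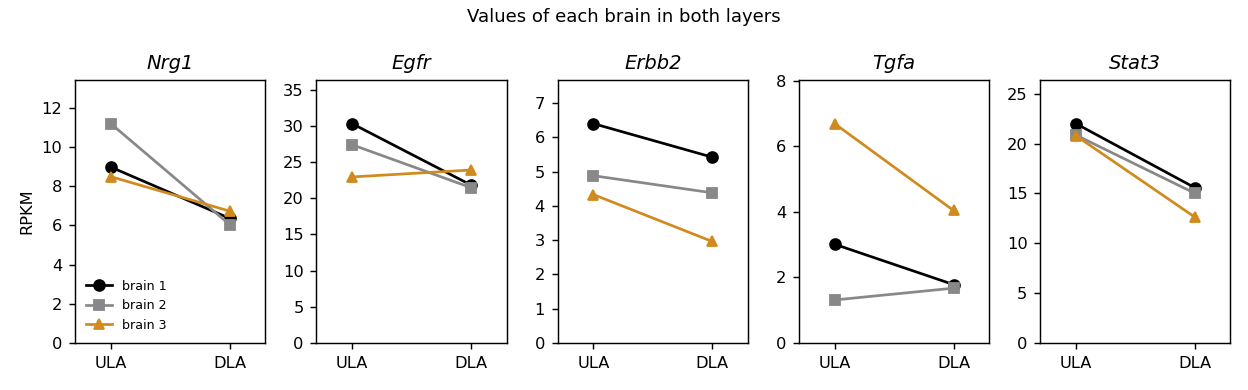
RPKM of Nrg1, Egfr, Erbb2, Tgfa and Stat3 in the ULAs and DLAs of each brain (lines join both layers of 1 brain), with each axis starting at 0. Nrg1, Erbb2 and Stat3 fall from ULA to DLA in 3 of 3 brains, while Egfr and Tgfa do so in 2 of 3.

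The other neuregulins of the set were low and overlapped between layers. Nrg2, on chromosome 18 (minus strand, 36177312 to 36356814, 10 exons), was at 1.15, 1.45 and 0.95 RPKM in ULAs and 1.06, 1.41 and 1.45 RPKM in DLAs, with overlapping layers. The fitted difference was −0.08 on the log2 scale, with an SE of 0.17 (adjusted p = 0.849, limma). Nrg3, a neuregulin known mainly from neurons, lies on chromosome 14 (minus strand, 39182137 to 40286376, 10 exons). It was at 0.29, 0.60 and 0.86 RPKM in ULAs and 0.41, 0.59 and 0.36 RPKM in DLAs, from 29 to 93 reads per library. The layers overlapped and the ratio ran from 0.707 in brain 1 to 2.39 in brain 3 (exact permutation p = 0.75). Whether Nrg1 differed from Nrg2, Nrg3 or Nrg4 in its layer difference was not tested.

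Of 57 further genes of the pathway, 48 had a mean of at least 1 RPKM, and 1 of these passed in limma, Stat3, which was higher in ULAs. At an unadjusted p under 0.05, 4 of the 48 were higher in ULAs and 1 was higher in DLAs, where 5.64% and 10.8% of all rows were. The 4 were Stat3, Cblb, Pik3r3 (log2 fold change 0.49) and Cd44 (0.59), and the 1 was Sdc3 (−0.50). The 48 genes had a median log2 fold change of 0.11, against −0.03 over all rows. Stat3, a transcription factor that ErbB receptors and cytokine receptors activate, reached 22.01, 20.86 and 20.80 RPKM in ULAs for brains 1, 2 and 3, compared with 15.58, 15.02 and 12.63 RPKM in DLAs. The layers did not overlap, and the ratio was 1.41, 1.39 and 1.65. This corresponds to a log2 fold change of 0.53 with an SE of 0.11 (adjusted p = 0.0492, limma), just past the threshold, and the adjusted p lay above 0.05 in 8 of 11 alternatives, within a range of 0.0273 to 0.339.

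The group of adaptors and effectors, most of which pass the signal from the receptors into the cell, also holds the surface proteins Cd44 and Sdc3. Of its 26 genes, 24 were tested. Stat3 was the 1 that passed, beside 1.63% of all rows. Of the tested genes, 18 had a log2 fold change above 0, a count given without a share of all rows and with the length trend left in. The most abundant of them were Plcg1, a phospholipase that docks on the receptors, at 34.5 ± 4.29 RPKM in ULAs and 30.4 ± 4.43 in DLAs (adjusted p = 0.444, limma), and the adaptor Crk, at 29.2 ± 2.91 and 30.3 ± 2.46 RPKM (adjusted p = 0.849, limma). Among 14 genes that take part in shedding or cutting the ligands, 10 were tested and 0 passed in limma, also at an unadjusted p under 0.05. Rhbdf1, which helps the sheddase Adam17 to mature, was at 38.3 ± 9.27 and 32.0 ± 6.51 RPKM (adjusted p = 0.346, limma), and the rhomboid protease Rhbdl1 at 25.0 ± 5.38 and 25.3 ± 1.42 RPKM (adjusted p = 0.918, limma). Of 12 genes listed as regulators of the receptors, not all of which restrain them, 12 were tested and 0 passed in limma, with 1 at an unadjusted p under 0.05. Lrig1, which lowers the level of ErbB receptors, was at 13.15, 10.02 and 8.06 RPKM in ULAs and 21.26, 7.52 and 13.04 RPKM in DLAs, with the layer order of brain 2 opposite to the others (adjusted p = 0.456, limma). The log2 fold change of Lrig1 was −0.30 with all brains, and −0.13, −0.64 and −0.14 without brains 1, 2 and 3. Its adjusted p in limma was 0.0352 without brain 2 and ran from 0.365 to 0.983 in the other alternatives. The phosphatase Ptpn1 was at 10.9 ± 0.624 and 11.8 ± 1.14 RPKM (adjusted p = 0.724, limma). The gene of this group with the unadjusted p under 0.05 was Cblb, chosen after its values were seen, which encodes a ubiquitin ligase that marks active receptors for removal. It was at 7.71, 6.52 and 8.41 RPKM in ULAs and 4.73, 3.29 and 6.02 RPKM in DLAs, without overlap (log2 fold change 0.61, SE 0.13, adjusted p = 0.0579, limma, within 0.00739 to 0.403 over the alternatives). Of all rows, 6.59% lacked overlap in that direction.

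The remaining family ligands, Egf and Nrg4, had log2 fold changes of 0.07 (SE 0.16, adjusted p = 0.872, limma) and −0.10 (SE 0.12, adjusted p = 0.727, limma). For each of the tested members other than Nrg1, the adjusted p lay above 0.05 in all alternatives in which it was tested, the lowest being that of Egfr without brain 3 (0.0618, log2 fold change 0.40). The log2 fold change of Egfr was 0.14 without brain 1 (adjusted p = 0.981, limma) and 0.20 without brain 2 (adjusted p = 0.597, limma).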

How the data were processed

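For the GFP-positive cells of both layers of 3 brains, cDNA came from a SMART-Seq v4 kit, which does not mark strand, and libraries from a Nextera XT kit. Single-end sequencing gave 36 bases per read. The authors deposited RPKM values with 2 decimals, 1 row per transcript model, and the processing notes name bcl2fastq 1.8.4, CASAVA 1.8.2 and mm9. The aligner and the counting program are not given in the sources used here. In rows of up to 500 bases, 99.9 to 100% of the values followed from whole reads at a single depth, with the reads scaled to library size cut to 2 decimals before and after division by length. These depths give precision only.

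The layer comparison used limma 3.58.1 (R 4.3.3) on log2(RPKM + 1), for rows whose mean RPKM reached 1 (trend in eBayes, brain and layer as terms, two-sided, Benjamini-Hochberg adjustment over all rows). A fold change on this scale understates the change of low genes. Libraries of both layers with the same replicate number were taken as 1 brain, since the study used 3 brains and each such pair deviated together (r across rows 0.422, 0.333 and 0.341, against −0.199 to −0.16 for the rest). Single values and shares were compared by exact permutation (Python 3.11.15, numpy 2.4.6, pandas 2.3.3, and matplotlib 3.10.9 for figures). The fit was tested on simulated data. The members and gene lists were chosen with earlier results of these data known. All 10 members are named, and of the pathway lists each gene that passed and the 2 with the highest mean RPKM per list. Pathway genes with an unadjusted p under 0.05 were named after their values were seen.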

Additional observations from a re-analysis of the deposited data

How the results depend on the processing

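Over the 11 alternatives, the 6 tested members gave 63 log2 fold changes, of which 60 kept their direction and their side of the threshold. The number of members called was 0 in each setting except without brain 3, where Nrg1 passed, so that it ran from 0 to 1 with 1 brain left out. Leaving out the replicate block (the pairing by brain) changed no call among the members, and moved the rows called from 100 to 23 in ULAs and from 128 to 18 in DLAs and the pathway genes called from 1 to 0. With no filter on low RPKM, 0 rows were called in either direction by limma (1124 and 1675 at an unadjusted p under 0.05). With the length trend removed, 65 and 78 rows were called, and without the variance trend 65 and 79. With 1 brain left out, the rows called ran from 96 to 431 in ULAs and from 121 to 695 in DLAs, the highest numbers being those without brain 3. The pathway genes called were 0 without the filter, with a pseudocount of 0.1, with the length trend removed and without the variance trend, 2 among rows of at least 5 RPKM, and 0 to 4 with 1 brain left out. The share of Egfr among the receptors differed by −0.188 percentage points when only Egfr and Erbb2 were counted, and by 0.566 to 3.16 with 1 brain left out. With 1 brain left out, the log2 fold change ran from −0.15 to 0.043 for Nrg2, from −0.0023 to 0.082 for Hbegf, from −0.0056 to 0.12 for Egf, from −0.20 to 0.015 for Nrg4, from −0.14 to 0.13 for Rhbdl1 and from −0.20 to 0.0012 for Ptpn1. With the length trend removed it was −0.035 for Egf and 0.046 for Rhbdl1, and under quantile normalization 0.038 for Rhbdl1 and 0.031 for Crk. The causes were not tested. For Nrg3, below the filter, the difference of the mean RPKM was 0.13 and became −0.055 without brain 3. Where a brain is left out, 2 pairs remain and the spread is borrowed from all rows.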
